A study of Mus musculus with 123 samples.

Results

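The genes described here are 4 regulators of hepatic fat and sterol synthesis: Srebf1, which encodes SREBP1, Mlxipl, which encodes ChREBP, Nr1h3, which encodes the liver X receptor LXRα, and Insig2, which encodes a brake on SREBP activation. They were chosen by symbol from the 15398 genes of the deposited expression table, where each had 1 row, and all 4 passed the filter on low values that 14397 genes passed. Mouse liver RNA was measured on 2 diets, labelled high fat (HFD) and low fat (LFD), and in 3 photoperiods, labelled Short light, Equal light and Long light, and sampled at zeitgeber time (ZT) 0, 4, 8, 12, 16 and 20 h. Crossing 2 diets, 3 photoperiods and 6 times gave 36 groups of 3 or 4 libraries, with 61 HFD and 62 LFD libraries in all. A diet and a photoperiod together are called an arm, and there were 6 arms. Genotype, strain, sex, age, diet composition, the hours of light and the event that ZT0 marks are not given in the sources used here, so that a peak time in ZT is read against an unstated zero. The labels do not tie libraries to animals, and p-values therefore measure the spread between these samples, which may in part be technical.

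SREBP1 is a transcription factor made as a membrane precursor in the endoplasmic reticulum. The escort protein SCAP carries it to the Golgi, where proteases release its active part, and the INSIG proteins hold SCAP back. The active factor drives genes of fatty acid synthesis. ChREBP, with its partner MLX, binds genes of glycolysis and lipogenesis when carbohydrate is plentiful, and LXRα, with a retinoid X receptor, responds to oxidised sterols and raises Srebf1 transcription and sterol export. In mouse liver, Insig2 is also known as a gene repressed by the clock protein REV-ERBα, the product of Nr1d1. RNA levels do not show processing or nuclear entry of these proteins.

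The libraries held 13.97 M to 39.1 M recovered reads (M, mega); the median was 24.1 M. Each value below is the deposited log2 CPM, CPM being counts scaled to a library size. The CPM of a library summed to between 818333 and 1.1058e+06, so that size was not simply its total count. The 6 hepatocyte markers (such as Alb and Apoa1) averaged 12.2 to 13.3 log2 CPM over the libraries, so the labelled tissue was present in each. Pancreas acinar or skeletal muscle markers averaged above 4 log2 CPM in 18 libraries, called marker-rich below, and these were unequal between the diets: 3 HFD and 9 LFD libraries were rich in pancreas markers, and 2 HFD and 6 LFD libraries in muscle markers. A pair of libraries lay farthest from their group means over all genes, LFD Equal light ZT0 replicate 3 and HFD Equal light ZT20 replicate 1. In bulk liver, fewer cells of a type and less RNA per cell cannot be told apart.

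By median over all libraries, Srebf1 stood at 9.31 log2 CPM, Mlxipl at 8.71, Insig2 at 8.29 and Nr1h3 at 6.80. Per kilobase of merged exons the medians were 112.9 CPM for Srebf1, 90.4 for Insig2, 75.7 for Mlxipl and 44.2 for Nr1h3, so Insig2 and Mlxipl change places once length is counted. The share of variance that lay between the 36 groups was 77.04% for Insig2, 43.95% for Srebf1, 38.96% for Mlxipl and 31.3% for Nr1h3. These shares were not adjusted for the number of groups. With 36 small groups, a sizeable share arises even without any difference between them, and its size was not computed. The lower shares, such as that of Nr1h3, therefore do not by themselves show that the groups differed. Pooled within-group SDs were 0.60 for Srebf1, 0.53 for Insig2, 0.29 for Mlxipl and 0.19 for Nr1h3. Each value sums all transcripts of a gene, so SREBP1a and SREBP1c, or the alpha and beta forms of ChREBP, were not separated.

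**Figure D1:**
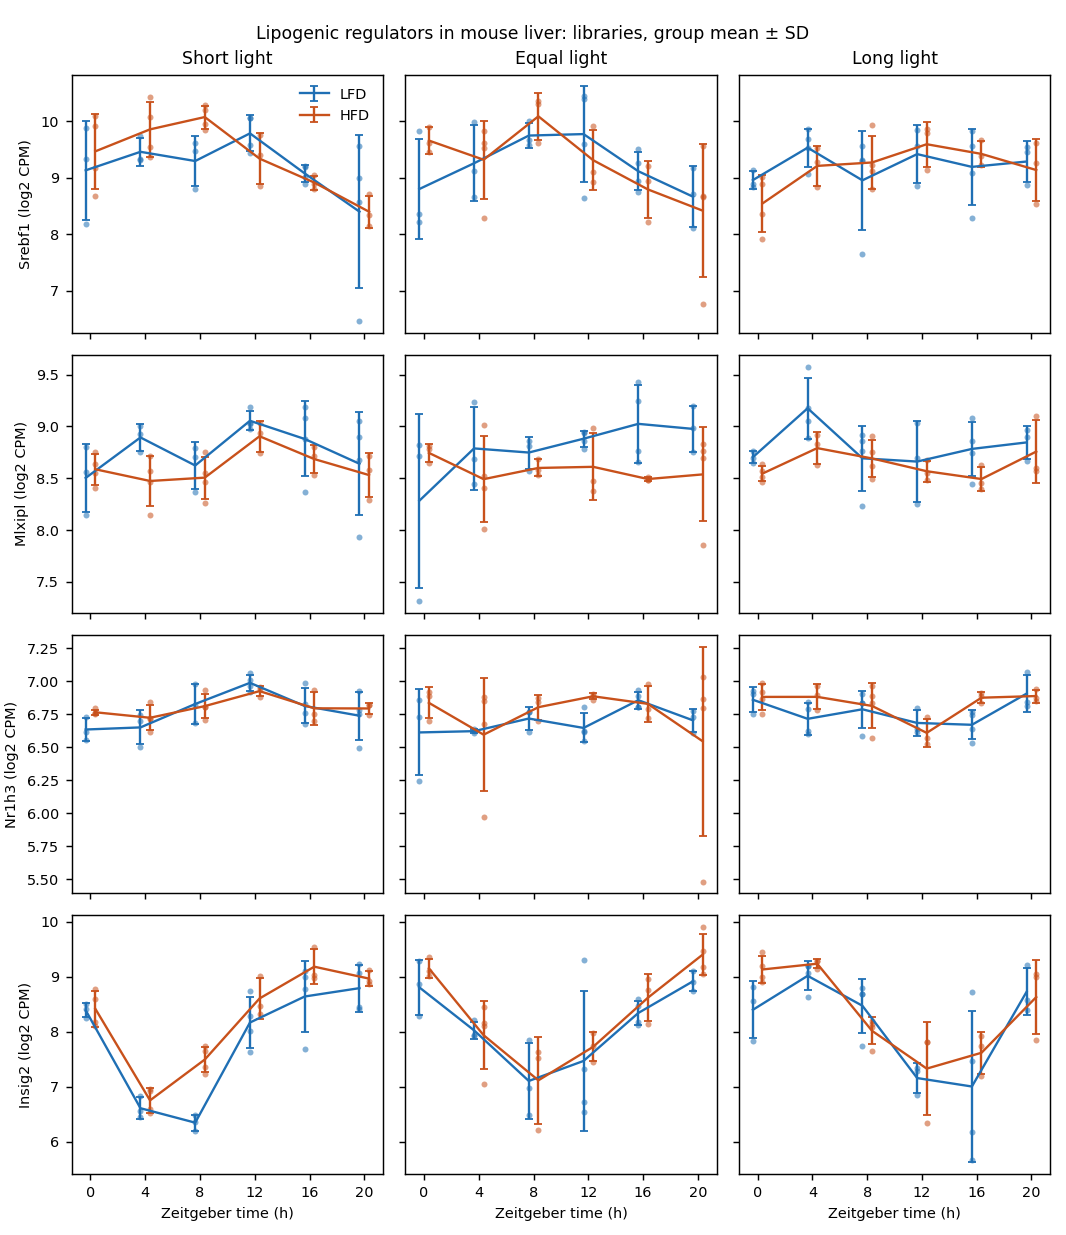
Level of each regulator (log2 CPM) against zeitgeber time (h) in Short, Equal and Long light. Points are single libraries, lines join group means, bars are SD over 3 or 4 libraries, blue is LFD and orange HFD. The Insig2 trough moves from ZT4 and ZT8 in Short light to ZT12 and ZT16 in Long light.

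Insig2 (ENSMUSG00000003721) is on the minus strand of chr1:121304353-121332589 (GRCm38, GENCODE mouse release 21) and is protein coding. Of the 4 regulators it moved most over the day, and the time at which it peaked differed between photoperiods. Its fitted peak fell at ZT17.8 in Short light, ZT20.9 in Equal light and ZT1.71 in Long light, and its level swung several-fold in each. Group means ran from 6.35 ± 0.14 log2 CPM (SD, n = 3) in LFD Short light at ZT8 to 9.40 ± 0.37 (SD, n = 4) in HFD Equal light at ZT20, 8.29-fold apart.

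The stretch around the most upstream of its 3 RefSeq starts (GRCm38.p6), from 250 bases before to 50 after the start, is shown because Insig2 carries the strongest daily rhythm of the set, and capitals mark the letters CCAAT or, on the opposite strand, ATTGG.
Insig2 chr1:121332540-121332839 (minus strand): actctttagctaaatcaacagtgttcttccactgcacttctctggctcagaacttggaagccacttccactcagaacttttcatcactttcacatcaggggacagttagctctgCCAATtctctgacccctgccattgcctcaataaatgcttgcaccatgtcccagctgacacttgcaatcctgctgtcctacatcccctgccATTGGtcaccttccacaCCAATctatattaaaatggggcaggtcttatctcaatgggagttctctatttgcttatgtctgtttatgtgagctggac
The CCAAT letters begin 136, 46 and 29 bases before the start. Of all 32851 RefSeq windows of this length, 37.4% held them on either strand. The D-box letters TTATGTAA (0.938% of windows) and the ROR element letters TAGGTCA (2.61%), both searched on either strand, were not in this window or in the other 9 windows of the 4 genes. The motifs were picked after the windows had been read.

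In Short light at ZT4, the 3 LFD libraries read 6.56, 6.45 and 6.84 and the 4 HFD libraries 6.60, 6.96, 6.53 and 6.93. In Long light at the same time, the 4 LFD libraries read 8.63, 9.19, 9.19 and 9.07 and the 3 HFD libraries 9.14, 9.28 and 9.28. All 7 Short light libraries at ZT4 were therefore below all 7 in Long light, with medians of 6.60 and 9.19. How many of all genes were separated in this way was not computed, and the time was picked after the values were seen. Equal light lay between them, from 7.05 through a median of 8.10 to 8.44 over 7 libraries. At ZT16 the order turned: the 7 Short light libraries ran from 7.69 through a median of 8.99 to 9.54, and the 7 Long light libraries from 5.67 through 7.47 to 8.72. These ranges overlapped: the LFD Long light libraries read 8.72, 5.67, 6.17 and 7.47, and the highest HFD Long light library read 7.92.

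With 1 cosine of 24 h per arm, Insig2 was rhythmic in each of the 6 arms (limma, Benjamini-Hochberg over all genes). The adjusted p was 2.47e-06 in HFD Equal light, 0.000157 in LFD Equal light, 2.34e-05 in HFD Long light, 1.99e-05 in LFD Long light, 5.02e-07 in HFD Short light and 5.87e-08 in LFD Short light. In the same order, 16.5%, 20.9%, 21.8%, 23.6%, 14.1% and 27.1% of all genes tested were called rhythmic. Amplitudes (mean to peak, log2) ran from 0.92 ± 0.17 (SE) in LFD Equal light to 1.26 ± 0.17 (SE) in LFD Short light, which is 3.60-fold and 5.71-fold from trough to peak. Averaged over the arms, the level also differed between the 6 times (adjusted p = 3.57e-13), as it did for 43.5% of genes.

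The rhythm of Insig2 differed between each pair of photoperiods. From Short to Long light its peak was 7.89 ± 0.60 h (SE) later (adjusted p of the rhythm difference 1.79e-16), from Equal to Long light 4.77 ± 0.64 h later (3.21e-07), and the peak in Short minus that in Equal light was -3.12 ± 0.58 h (0.000268). Because the event that ZT0 marks is not given, a shifted peak cannot be told apart from a ZT0 set differently between photoperiods. Between the diets, the peak time in HFD minus that in LFD was -0.48 ± 0.90 h in Equal light, -1.24 ± 0.93 h in Long light and -0.98 ± 0.74 h in Short light (SE). No rhythm difference between diets was called for Insig2 or for the other 3 regulators (adjusted p of 1 for each), and 0.00695% of genes, that is 1 gene, were called. Such differences of rhythm between photoperiods were common: 52.9% of genes were called for Long against Short light, 23.8% for Long against Equal and 16.3% for Short against Equal.

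Arntl encodes BMAL1, an activator of the clock, and its peak moved alongside. The Arntl peak fell at ZT17.0, ZT20.0 and ZT0.85 in Short, Equal and Long light, and the fitted Insig2 peak was 0.66 to 1.13 h after it in the 6 arms. By arm, the SE of the peak was 0.50 to 0.69 h for Insig2 and 0.42 to 0.58 h for Arntl. The lag was not tested. Nr1d1 peaked at ZT1.41, ZT6.42 and ZT9.64, so that Insig2 led it by 7.25 h in HFD Short light and by 10.2 h in HFD Equal light, the extremes of the 6 arms. Dbp, a clock output gene, peaked at ZT4.59, ZT8.45 and ZT12.9. Over the 36 group means, which share time and photoperiod, r between Insig2 and Arntl was 0.95, given as a description.

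**Figure D2:**
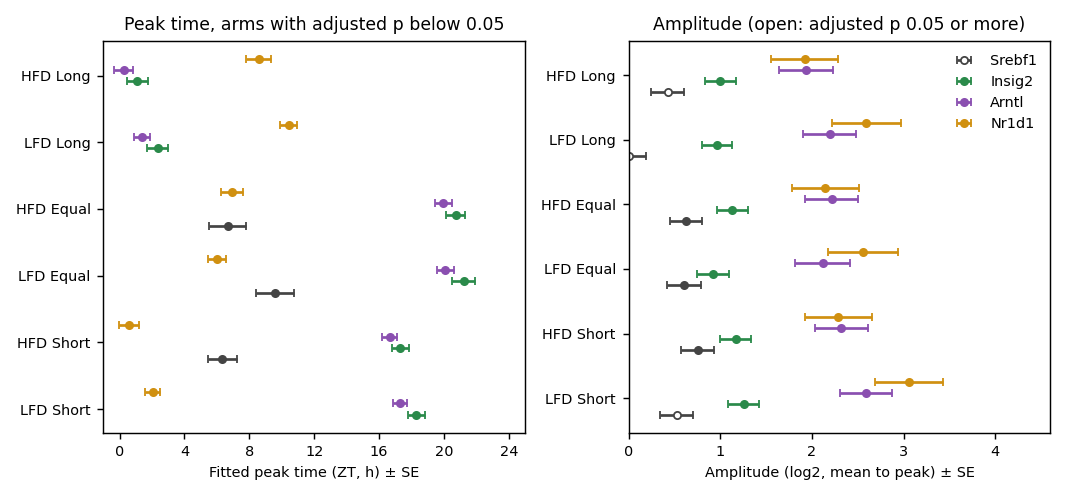
Left, fitted peak time (ZT, h ± SE) of Srebf1, Insig2, Arntl and Nr1d1 in arms whose rhythm passed an adjusted p of 0.05. Right, amplitude (log2, mean to peak, ± SE) in all 6 arms, with open symbols where the rhythm did not pass. The fitted Insig2 peak is later than that of Arntl in every arm, a lag that was not tested. Srebf1 has the smallest amplitudes, 0.01 in LFD Long light.

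The genes with profiles most like that of Insig2 over the 36 group means, among 9977 named genes, were Elovl3 (r = 0.97), an elongase of very long fatty acids, Clpx (0.97), a mitochondrial chaperone subunit, Gldc (0.96), of the glycine cleavage system, and Trim2 (0.96). When each library was instead compared with its own group mean, over all libraries, the closest were Dtx4 (0.83), Trim2 (0.83), Lgalsl (0.81) and Arntl (0.78). Trim2 was on both lists. These r values describe likeness and were not tested.

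Averaged over the 18 pairs of photoperiod and time, Insig2 was higher in HFD than in LFD by 0.27 ± 0.09 log2 (SE), 1.21-fold (95% interval 0.09 to 0.46, adjusted p = 0.0223). The HFD mean was the higher in 15 of 18 pairs. HFD libraries ran from 6.21 through a median of 8.19 to 9.90 and LFD libraries from 5.67 through 8.35 to 9.30, so the plain medians, which do not weight times equally, had the opposite order. In Short light at ZT8 the 3 LFD libraries read 6.20, 6.37 and 6.49 and the 4 HFD libraries 7.24, 7.36, 7.65 and 7.73, without overlap, and Long light at ZT0 was the other pair in which all HFD libraries were above. Over all genes and pairs, HFD stood wholly above LFD in 4.5% of cases and wholly below in 4.11%.

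The diet call of Insig2 was lost without the 18 marker-rich libraries, where the difference was 0.23 (adjusted p = 0.119), without replicate 1 of each group (0.20, adjusted p = 0.257) and without replicate 3 (0.29, adjusted p = 0.0869). The part of the other tissues in this difference was not tested. By photoperiod the differences were 0.21 in Equal, 0.20 in Long and 0.41 in Short light, with adjusted p of 0.508, 0.581 and 0.103. Over all genes, 25.5% were called between the diets, 12.9% higher and 12.6% lower in HFD, and within photoperiods 6.85%, 4.86% and 6.88% in Equal, Long and Short light. Of the 4 regulators, 1 was called higher and 1 lower between the diets, and none within a photoperiod.

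Averaged over its 6 times, Insig2 was highest in HFD Long light (8.33 ± 0.12 log2 CPM, SE), followed by HFD Equal (8.33), HFD Short (8.24), LFD Long (8.13), LFD Equal (8.11) and LFD Short light (7.83 ± 0.12). Neighbours in this order were at most 0.29 apart, less than the within-group SD of 0.53. Among the 36 groups, the 35 gaps between neighbouring means were also all below that SD, the widest being 0.26. With so many means in order, gaps are small in any case. Here and for the other regulators, they do not show that the groups were alike.

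Srebf1 (ENSMUSG00000020538) is on the minus strand of chr11:60199089-60222581 and is protein coding. It was high near ZT8 and low near ZT20 in Short and Equal light. In Long light no rhythm was called, and the fitted amplitude was 0.43 in HFD and 0.01 in LFD. The diet made little difference to its level. Group means ran from 8.40 ± 0.28 log2 CPM (SD, n = 3) in HFD Short light at ZT20 to 10.09 ± 0.42 (SD, n = 3) in HFD Equal light at ZT8, 3.22-fold apart.

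The window around 1 of its 3 RefSeq starts is shown because it was the one that held the LXR motif GGTTACT, LXRα being a regulator of Srebf1, and capitals mark that motif, which lies on the opposite strand as AGTAACC.
Srebf1 chr11:60210422-60210721 (minus strand): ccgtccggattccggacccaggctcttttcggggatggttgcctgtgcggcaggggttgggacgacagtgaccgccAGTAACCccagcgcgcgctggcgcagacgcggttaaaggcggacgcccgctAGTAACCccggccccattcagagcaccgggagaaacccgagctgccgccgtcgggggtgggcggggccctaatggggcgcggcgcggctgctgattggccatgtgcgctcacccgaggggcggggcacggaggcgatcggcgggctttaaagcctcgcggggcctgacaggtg
The first of the 2 matches begins 174 bases before the start, and 2.25% of all windows held these letters. A match describes the sequence and is no evidence of binding.

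In Equal light, the 6 libraries at ZT8 read 9.66, 9.58 and 9.997 in LFD and 10.30, 10.35 and 9.61 in HFD. At ZT20, the 3 LFD libraries read 8.11, 9.17 and 8.71 and the 4 HFD libraries 6.77, 8.68, 8.66 and 9.56, all below the lowest at ZT8. These times were picked after the values were seen, and the share of all genes without overlap between them was not computed. In Short light the 7 libraries ran from 8.80 through a median of 9.85 to 10.29 at ZT8 and from 6.47 through 8.57 to 9.57 at ZT20. In Long light the medians were 9.26 at ZT8 (8 libraries, 7.65 to 9.93) and 9.35 at ZT20 (6 libraries, 8.54 to 9.62). The groups at both times overlapped in Short and in Long light.

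The level of Srebf1 differed between the 6 times (adjusted p = 0.000239). Its rhythm was called in HFD Short light (amplitude 0.75 ± 0.18 SE, peak ZT6.34, adjusted p = 0.00496), HFD Equal light (0.63 ± 0.18, ZT6.67, 0.0256) and LFD Equal light (0.60 ± 0.19, ZT9.58, 0.0371). It was not called in LFD Short light (0.52 ± 0.18, adjusted p = 0.0562), HFD Long light (0.43 ± 0.18, 0.177) or LFD Long light (0.01 ± 0.18, 0.999). The rhythm differed between Long and Short light (adjusted p = 0.0154), as it did for 52.9% of all genes. The amplitude was 0.39 ± 0.18 (SE) smaller in Long light, that is 0.22 ± 0.13 against 0.61 ± 0.13. The test bears on both amplitude and phase and does not separate them.

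Without replicate 1 of each group the adjusted p for time of day was 0.0583, and without replicate 2 that for Long against Short light was 0.228. Each call in a single arm was lost under some alternatives. Without replicate 1 the adjusted p was 0.435 in HFD Equal light and 0.419 in LFD Equal light, and without replicate 3 it was 0.102 in HFD Short light. Without the 2 libraries farthest from their groups it was 0.164 in HFD Equal light and 0.0652 in LFD Equal light.

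Between the diets Srebf1 differed by 0.05 ± 0.11 log2 (SE; HFD minus LFD, 95% interval -0.16 to 0.27, adjusted p = 0.764). HFD was higher in 9 of 18 pairs. HFD libraries ran from 6.77 through a median of 9.28 to 10.43 and LFD libraries from 6.47 through 9.31 to 10.45. The pair without overlap was Short light at ZT8, with 9.61, 9.48 and 8.80 in LFD and 9.96, 9.85, 10.20 and 10.29 in HFD. Over all genes and pairs, HFD stood wholly above LFD in 4.5% of cases. By arm the order ran from HFD Short light (9.34 ± 0.13 log2 CPM, SE) through HFD Equal (9.26), LFD Equal (9.23), LFD Long (9.22) and HFD Long (9.20) to LFD Short light (9.19 ± 0.13). No pair of neighbours differed by more than 0.08, against a within-group SD of 0.60, and the 35 gaps between neighbouring groups were also below it.

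Over the group means, the genes most like Srebf1 included Pla2g15 (r = 0.82), a lysosomal phospholipase, Fads6 (0.82) and Mid1ip1 (0.81), which activates acetyl-CoA carboxylase. Across library deviations the closest were Mid1ip1 (0.76), Kank2 (0.71), Slc26a1 (0.71) and Ehd1 (0.69). Against Insig2, r over the 36 group means was -0.62, and in the 3 arms where its rhythm was called Srebf1 peaked 9.94, 12.4 and 13.03 h after Insig2 (HFD Equal, LFD Equal and HFD Short light).

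Mlxipl (ENSMUSG00000005373) is on the plus strand of chr5:135089890-135138382 and is protein coding. Its level was slightly lower in HFD than in LFD and changed little over the day. Group means ran from 8.28 ± 0.84 log2 CPM (SD, n = 3) in LFD Equal light at ZT0 to 9.17 ± 0.29 (SD, n = 4) in LFD Long light at ZT4, 1.86-fold apart. The lowest group holds 1 library at 7.31 beside 8.71 and 8.82, replicate 3, which is marker-rich and 1 of the 2 farthest from their groups; the next lowest mean was 8.47, in HFD Short light at ZT4.

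The windows at its 2 RefSeq starts are shown because they differ in the motifs they hold. Capitals mark the E-box CACGTG in the upstream window and the sterol element letters TCACNCCAC in the downstream window.
Mlxipl chr5:135089640-135089939 (plus strand): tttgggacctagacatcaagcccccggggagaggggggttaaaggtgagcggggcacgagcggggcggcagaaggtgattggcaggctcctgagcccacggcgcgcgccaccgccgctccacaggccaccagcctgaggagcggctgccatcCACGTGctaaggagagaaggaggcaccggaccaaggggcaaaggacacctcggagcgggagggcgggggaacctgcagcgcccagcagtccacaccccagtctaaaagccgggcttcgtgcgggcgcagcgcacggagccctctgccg
Mlxipl chr5:135106641-135106940 (plus strand): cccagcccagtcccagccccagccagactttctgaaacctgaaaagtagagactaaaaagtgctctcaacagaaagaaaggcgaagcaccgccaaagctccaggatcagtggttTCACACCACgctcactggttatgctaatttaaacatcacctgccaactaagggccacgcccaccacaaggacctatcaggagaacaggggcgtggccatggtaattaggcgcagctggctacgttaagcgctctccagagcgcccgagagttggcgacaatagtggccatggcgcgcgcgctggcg
The E-box begins 98 bases before its start and the sterol element 136 bases before its own. Of all windows, 7.15% held the E-box letters and 1.24% those of the sterol element. The 2 windows of Nr1h3 held none of the motifs searched.

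Averaged over the 18 pairs, Mlxipl was lower in HFD by 0.17 ± 0.05 log2 (SE; estimate -0.17, 95% interval -0.28 to -0.07, adjusted p = 0.00758), which is 1.13-fold. HFD libraries ran from 7.86 through a median of 8.58 to 9.10 and LFD libraries from 7.31 through 8.84 to 9.58. HFD was the higher in 2 of 18 pairs. In Equal light at ZT16 the 4 LFD libraries read 9.25, 8.66, 8.76 and 9.43 and the 3 HFD libraries 8.48, 8.48 and 8.51, and Short light at ZT4 and Long light at ZT0 were the other 2 pairs in which all HFD libraries were below. Over all genes and pairs, HFD stood wholly below LFD in 4.11% of cases.

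Without the marker-rich libraries the difference was -0.20 (adjusted p = 0.003). Leaving out replicate 1 or replicate 2 of each group gave -0.15 (adjusted p = 0.108) and -0.13 (adjusted p = 0.129), which did not pass. Within photoperiods the differences were -0.20 in Equal, -0.17 in Long and -0.15 in Short light, with adjusted p of 0.178, 0.312 and 0.314.

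Time of day was not called for Mlxipl (adjusted p = 0.224), and no arm had a called rhythm; the adjusted p was lowest in LFD Equal light, at 0.121 with an amplitude of 0.24 ± 0.09 (SE). Its amplitudes in Long and Short light were 0.11 ± 0.06 and 0.16 ± 0.06 (SE), with fitted peaks at ZT2.76 and ZT12.9. This rhythm difference was called (adjusted p = 0.0405), as it was for 52.9% of all genes. That call was lost without the marker-rich libraries (adjusted p = 0.0562) and without replicate 1 (0.249), 3 (0.153) or 4 (0.0538).

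By arm Mlxipl ran from LFD Long light (8.81 ± 0.06 log2 CPM, SE) through LFD Equal (8.78), LFD Short (8.76), HFD Long (8.64) and HFD Short (8.61) to HFD Equal light (8.58 ± 0.07). The 3 LFD arms stood above the 3 HFD arms, and the gap between neighbours was at most 0.12, below the within-group SD of 0.29. The 35 gaps between the 36 groups were below it as well. Its profile over the group means was most like those of Pygl (r = 0.79), liver glycogen phosphorylase, Lsr (0.77), Mst1 (0.75) and Srd5a1 (0.75). Over library deviations it was most like Galt (0.70), of galactose breakdown, Haao (0.70), Serpinc1 (0.68), which encodes antithrombin, and Mtfp1 (0.68).

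Nr1h3 (ENSMUSG00000002108) is on the minus strand of chr2:91184061-91202834 and is protein coding. It was the steadiest of the 4, with group means from 6.54 ± 0.71 log2 CPM (SD, n = 4) in HFD Equal light at ZT20 to 6.99 ± 0.06 (SD, n = 4) in LFD Short light at ZT12, 1.36-fold apart. The lowest group holds 1 library at 5.48 beside 6.87, 6.80 and 7.03. No diet or time-of-day difference was called, and a difference of rhythm was called between Long and Short light.

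HFD libraries ran from 5.48 through a median of 6.83 to 7.03 and LFD libraries from 6.24 through 6.76 to 7.07. The diet difference was 0.05 ± 0.03 log2 (SE; 95% interval -0.02 to 0.11, adjusted p = 0.354). HFD was higher in 10 of 18 pairs, and in 3 pairs all HFD libraries were above, namely Short light at ZT0, Equal light at ZT12 and Long light at ZT16. Over all genes and pairs, HFD stood wholly above LFD in 4.5% of cases. With library weights that lower the influence of variable libraries, the difference was 0.06 and passed (adjusted p = 0.0106), in a fit that called 5698 genes between the diets in place of 3676.

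Time of day gave an adjusted p of 0.596 for Nr1h3, and its lowest adjusted p in an arm was 0.0752, in LFD Short light, with an amplitude of 0.16 ± 0.06 (SE). Between Long and Short light the rhythm differed (adjusted p = 0.00902), as it did for 52.9% of all genes. The amplitudes were 0.09 ± 0.04 and 0.11 ± 0.04 (SE) around fitted peaks at ZT23.4 and ZT12.6. At ZT12 in Short light the 4 LFD libraries read 7.06, 7.01, 6.91 and 6.96 and the 3 HFD libraries 6.94, 6.88 and 6.95. In Long light at ZT12 the 3 LFD libraries read 6.62, 6.64 and 6.80 and the 3 HFD libraries 6.73, 6.57 and 6.53, all below those of Short light. This time was picked after the values were seen, and the share of all genes so separated was not computed. Without replicate 2 the adjusted p was 0.105, and without replicate 3 it was 0.0583.

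By arm Nr1h3 ran from HFD Long light (6.82 ± 0.04 log2 CPM, SE) through HFD Short (6.80), LFD Short (6.77), LFD Long (6.77) and HFD Equal (6.75) to LFD Equal light (6.69 ± 0.04). Neighbours differed by at most 0.06, below the within-group SD of 0.19, and the 35 gaps between the 36 groups were below it too. Genes most like Nr1h3 over the group means included Ninj1 (r = 0.88), Mon1a (0.87) and Ppp5c (0.86). Over library deviations they were Mon1a (0.90), Ndufb7 (0.89), a subunit of respiratory complex I, Mbd3 (0.88) and Naprt (0.88). These r values take in the HFD Equal light ZT20 library with Nr1h3 at 5.48, whose group had an SD of 0.71. That library was also far from its group over all genes, and r without it was not computed.

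**Figure D3:**
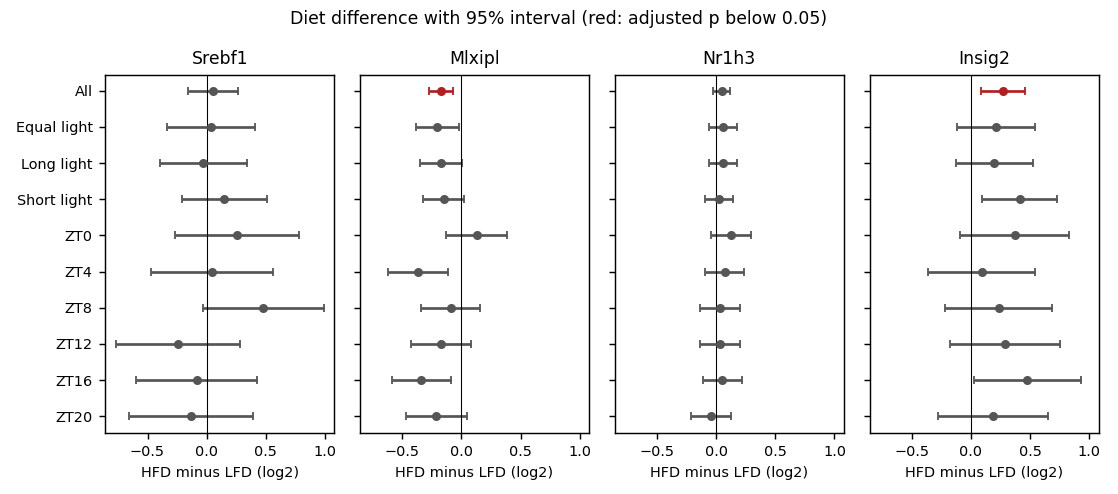
Difference between the diets (HFD minus LFD, log2) for each regulator, over all pairs, within each photoperiod and at each zeitgeber time. Points are estimates, bars 95% intervals, and red marks an adjusted p below 0.05. The overall differences of Mlxipl (-0.17) and Insig2 (0.27) are the 2 in red.

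At single times none of the 4 regulators was called between the diets. The share of genes called was 0.472% at ZT0, 2.36% at ZT4, 0.181% at ZT8, 0.00695% at ZT12, 2.5% at ZT16 and 0.597% at ZT20. The smallest adjusted p was that of Mlxipl at ZT4, 0.101, with a difference of -0.37 ± 0.13 (SE), and at ZT16 it was -0.34 ± 0.13 (0.138). Insig2 at ZT16 had 0.48 ± 0.23 (SE, adjusted p = 0.296) and Srebf1 at ZT8 0.48 ± 0.26 (SE, adjusted p = 0.529). Whether the diet difference depended on time or on photoperiod was tested directly, and for both tests 0% of genes were called by limma, with 340 and 483 genes at an unadjusted p below 0.05. Both counts are below a share of 0.05 of the 14397 genes tested, the share that would fall there without any difference. The absence of calls does not show an absence of differences. The adjusted p was 0.9998 for diet by time and 0.9994 for diet by photoperiod, for each of the 4 regulators.

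Averaged over the day, none of the 4 regulators was called between photoperiods. Pooled over the diets, Long minus Short light was 0.20 ± 0.11 (SE) for Insig2, -0.06 ± 0.13 for Srebf1, 0.04 ± 0.06 for Mlxipl and 0.01 ± 0.04 for Nr1h3. Their 95% intervals were -0.03 to 0.43, -0.31 to 0.20, -0.09 to 0.16 and -0.07 to 0.09. For this pair 0% of genes were called by limma, with 402 at an unadjusted p below 0.05, and for Long and Short against Equal light 0.0278% and 0.00695%. The count of 402 is also below a share of 0.05 of the 14397 genes tested. Within each diet the share was at most 0.00695%.

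The genes around the regulators were read as 5 lists, by how many changed between the diets. The lists were chosen with earlier results of these data known, so their counts beside the shares of all genes are a description and no test. In these counts, lower and higher mean called at an adjusted p below 0.05. Genes of fatty acid synthesis were listed under SREBP1 alone, although ChREBP also binds genes of lipogenesis. The lists therefore do not separate the action of SREBP1 from that of ChREBP. Among 18 targets of SREBP1, 11 were lower in HFD and 0 higher, with a median difference of -0.61 log2, against 12.6% of genes lower and a median of -0.004 over all genes tested. Pnpla3, a lipid droplet protein, fell by 1.83 ± 0.30 (SE; adjusted p = 9.62e-07) and Elovl6, an elongase, by 1.06 ± 0.20 (1.70e-05). The acetyl-CoA carboxylases Acaca and Acacb fell by 0.76 ± 0.15 (3.74e-05) and 0.83 ± 0.17 (0.000133). Me1, the malic enzyme that supplies NADPH, fell by 0.91 ± 0.18 (6.11e-05), and Scd1, the desaturase of saturated fatty acids, by 0.91 ± 0.19 (0.000105). Elovl5 and Fads1, of the synthesis of polyunsaturated fatty acids, had -0.14 ± 0.12 (0.421) and -0.14 ± 0.09 (0.236). Srebf1 RNA itself was not called, at 0.05 ± 0.11. Without the marker-rich libraries 12 targets were lower, and without replicate 1 of each group 7 were.

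For 15 of these 18 targets the level differed by time of day, and the rhythm of 5 differed between Long and Short light, against 43.5% and 52.9% of all genes. Diet by time was called for 0 of them by limma, as for 0 genes in all.

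Of 8 genes of SREBP processing, 2 were lower in HFD and 0 higher, with a median of -0.05, against 12.6% of all genes lower and 12.9% higher. Scap, the escort protein, fell by 0.23 ± 0.07 (SE; adjusted p = 0.00586). Insig1, the close relative of Insig2, had -0.20 ± 0.12 (0.216), and Fbxw7, which marks nuclear SREBP for breakdown, 0.04 ± 0.03 (0.214). Time of day was called for 4 of the 8 and a rhythm difference between Long and Short light for 6, where 43.5% and 52.9% of all genes were called. Without replicate 1 none of the 8 was called lower, and the median was -0.05.

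Of 6 partners of ChREBP and LXR, 1 was higher in HFD and 0 lower, with a median of -0.02, and the shares of all genes were 12.9% and 12.6%. Rxrg, a retinoid X receptor at a low level in these livers (medians 2.24 log2 CPM in LFD and 2.55 in HFD), rose by 0.31 ± 0.06 (SE; adjusted p = 6.77e-06). Mlx, the partner of ChREBP, had 0.00 ± 0.04 (0.995) and Mlxip, which encodes the related MondoA, -0.07 ± 0.03 (0.101). Time of day was called for 1 and the rhythm difference for 3, beside 43.5% and 52.9% of all genes.

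Among 10 targets of ChREBP, 2 were higher in HFD and 1 lower, with a median of 0.001, counts near the 12.9% and 12.6% of all genes. Gpd1, the cytosolic glycerol 3-phosphate dehydrogenase, rose by 0.20 ± 0.05 (SE; adjusted p = 0.00215) and Fgf21, a hepatic hormone, by 0.44 ± 0.15 (0.0211). Pklr, liver pyruvate kinase, fell by 0.37 ± 0.10 (0.00409). Arrdc4 had 0.00 ± 0.08 (SE; adjusted p = 0.978). Without replicate 1 of each group Pklr did not pass (-0.23, adjusted p = 0.234), and Fgf21 did not without replicate 2 (0.33, adjusted p = 0.201) or replicate 4 (0.38, adjusted p = 0.0698). Time of day was called for 6 of the 10 and the rhythm difference for 7, beside 43.5% and 52.9% of all genes.

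Among 10 targets of LXR, 4 were lower in HFD and 1 higher, with a median of -0.10, beside 12.6% and 12.9% of all genes. Rnf145, a ubiquitin ligase of the endoplasmic reticulum, fell by 0.43 ± 0.06 (SE; adjusted p = 4.94e-09), Pltp, which transfers phospholipids between lipoproteins, by 0.41 ± 0.12 (0.00701), Abcg5, of sterol export into bile, by 0.23 ± 0.07 (0.00809) and Abca1, which exports cholesterol, by 0.15 ± 0.03 (0.000207). Cyp7a1, the rate-limiting enzyme of bile acid synthesis, rose by 0.50 ± 0.19 (0.0422). Abcg8, the partner of Abcg5, had -0.13 ± 0.07 (0.148) and Abcg1 0.12 ± 0.05 (0.0999). Cyp7a1 did not pass without replicate 1 (0.34, adjusted p = 0.370), without replicate 3 (0.46, adjusted p = 0.141) or with quantile normalization (0.48, adjusted p = 0.0501). Pltp did not pass without replicate 1 (-0.33, adjusted p = 0.0726), nor Abcg5 without replicate 3 (-0.21, adjusted p = 0.0969) or without the marker-rich libraries (-0.19, adjusted p = 0.0573). Time of day was called for 5 and the rhythm difference for 5, near the shares of all genes (43.5% and 52.9%).

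**Figure D4:**
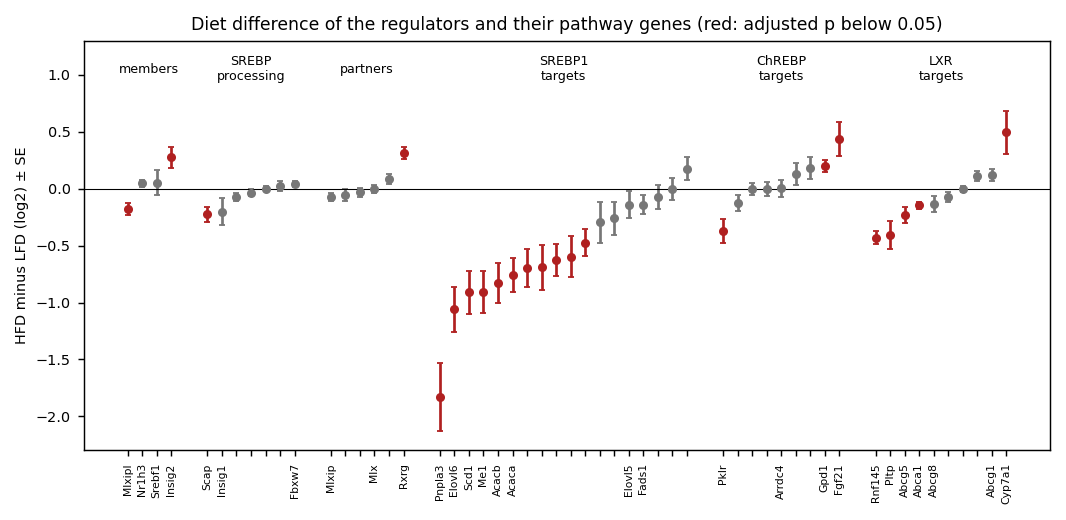
Difference between the diets (HFD minus LFD, log2 ± SE) for the 4 regulators and the reported genes of the 5 lists, ordered by size within each and labelled where the text names them. Red marks an adjusted p below 0.05 over all genes tested. Of the 18 SREBP1 targets, 11 are red and below 0.

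Libraries of the same group also differed from one another, and some regulators deviated together. Over all libraries, each taken relative to its group mean, r was 0.51 for Srebf1 and Nr1h3 (adjusted permutation p = 0.00114, Spearman's rho 0.35, adjusted p = 0.00414). For Srebf1 and Mlxipl r was 0.44 (adjusted permutation p = 0.00252; rho 0.32, 0.0109), and for Mlxipl and Nr1h3 0.48 (0.00252), where rho was 0.23 and did not pass (0.0705). Srebf1 and Insig2 had r of -0.29 (adjusted permutation p = 0.0171), and rho, -0.18, did not pass (0.132). Insig2 had r of 0.11 with Mlxipl and -0.10 with Nr1h3, which did not pass (adjusted permutation p of 0.302 and 0.306).

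These p-values came from 100000 two-sided permutations within groups and were adjusted over the 6 pairs. The raw p was 0.00019 for Srebf1 and Nr1h3, 0.0009 for Srebf1 and Mlxipl, 0.00126 for Mlxipl and Nr1h3 and 0.0114 for Srebf1 and Insig2. Without the 2 libraries farthest from the median of the first gene of each pair, r was 0.41 for Srebf1 and Nr1h3, 0.32 for Srebf1 and Mlxipl, 0.43 for Mlxipl and Nr1h3 and -0.26 for Srebf1 and Insig2. For Mlxipl and Nr1h3 this left in the HFD Equal light ZT20 library with Nr1h3 at 5.48. The r of 0.43 is therefore no check on that library. Depth and tissue markers also varied between libraries of a group, and their part in these correlations was not tested. Without the marker-rich libraries the 4 r values, in the same order, were 0.53, 0.40, 0.49 and -0.36 (adjusted permutation p of 0.0024, 0.0116, 0.004 and 0.0024).

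**Figure D5:**
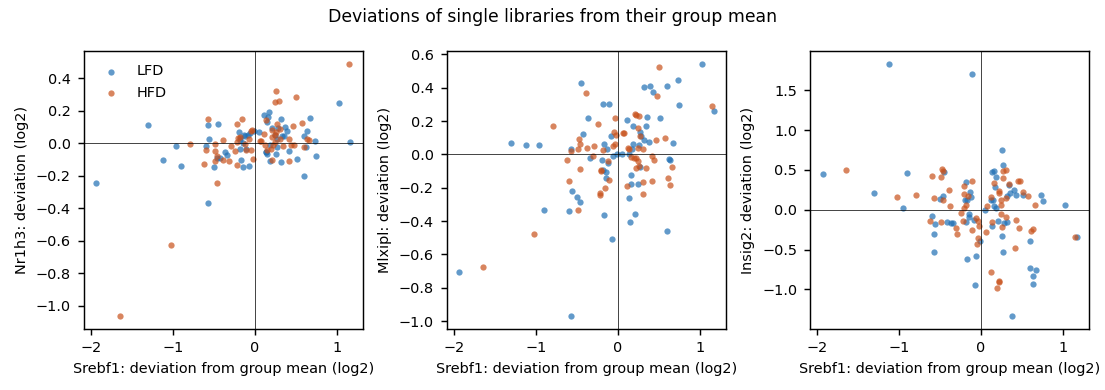
Deviation of each library from its group mean (log2) for Srebf1 on the horizontal axis and Nr1h3, Mlxipl or Insig2 on the vertical axis. Blue points are LFD libraries and orange points HFD libraries. The point at the lower left of the first panel is the HFD Equal light ZT20 library with Nr1h3 at 5.48.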

How the data were processed

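Liver RNA was sequenced in 61 HFD and 62 LFD libraries. Per the labels' protocols, these were stranded TruSeq libraries of poly-A RNA, read from both ends. The genome was mm10 (GRCm38) and the tools were STAR, Subread 1.6.2 and featureCounts, per the submitters' processing notes, which as used here do not state the normalization. Log2 CPM values were deposited by the authors, with a common lowest value of -3.61, or 0.0818 CPM. Taking that floor as a prior of 2 reads, 99.4% to 99.7% of a library's values came out as whole reads within 0.05 read, which gave the depths; the prior makes log2 differences of low genes too small. No count model was the main test, since the table holds log2 values.

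Groups came from the titles, replicate numbers follow deposit order and only name libraries, and 0 columns lacked a sample. Over 153 pairs of libraries in the same group, the chi-square per degree of freedom was at least 15.7, so none was counted as a duplicate. Genes that reached 1 CPM in 3 or more libraries were tested with limma 3.58.1 (R 4.3.3) and a variance trend: 1 mean per group for levels, and a 24 h cosine and sine per arm for rhythms, with delta-method SEs. The Benjamini-Hochberg adjustment covered 14397 genes, with a threshold of 0.05. The fits were tested on simulated data.

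Named genes are the 4 regulators, up to 6 called and 2 uncalled genes per list, Arntl, Nr1d1 and Dbp, and the 4 genes most like each regulator with a mean of at least 2 log2 CPM; some genes that this rule names are not reported here. Members and lists were chosen with earlier results of these data known. Groups, times or pairs singled out for their values were chosen after those were seen. Alternatives changed the variance model, filter, scaling, pseudocount, library weights, covariate, harmonic and libraries included, and the recovered reads were tested with limma-voom. Promoter windows are from RefSeq (GRCm38.p6), where 10 windows matched the 4 symbols.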

Additional observations from a re-analysis of the deposited data

Results flagged for a closer look

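Each group of 4 libraries was searched for 1 library far from the other 3, by Dixon's test, for each of the 4 regulators. Of 60 such sets 4 were flagged, and chance flags about 1 in 20. Srebf1 in LFD Long light at ZT8 had a lowest library (replicate 4) at 7.653 log2 CPM beside 9.292 to 9.557. Insig2 in the same group had a lowest library at 7.736 beside 8.683 to 8.787, but this was replicate 1. In HFD Equal light at ZT20, replicate 1 was lowest for both Mlxipl, at 7.86 beside 8.695 to 8.825, and Nr1h3, at 5.483 beside 6.796 to 7.032. That library is also 1 of the 2 that lay farthest from their group means over all genes.

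The rhythm of Insig2 was flagged because it differed between photoperiods by a direct test, with adjusted p of 1.793e-16 for Long against Short light, 3.208e-07 for Long against Equal light and 0.0002677 for Short against Equal light. The Long against Short light difference was flagged likewise for Nr1h3 (0.009025), Srebf1 (0.01536) and Mlxipl (0.0405). Of all genes tested, 52.9% were called for Long against Short light, 23.8% for Long against Equal and 16.3% for Short against Equal.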

How the results depend on the processing

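No paired analysis was possible because the labels give no replicate numbers that link libraries of different groups. In every alternative run, Insig2 kept its time-of-day call (adjusted p up to 1.56e-06) and its rhythm differences for Long against Short light (up to 1.30e-09), Long against Equal light (up to 0.0011) and Short against Equal light (up to 0.0373). Rhythm values below are adjusted p, and difference values are log2. Counts of list genes lower or higher in HFD take in called genes only. Each difference that changed sign had an adjusted p above 0.05 in the fit reported. The cause was not tested for any of these changes. Among the alternatives that kept every replicate number, 1173 values kept their direction and their side of the threshold. Leaving out the marker-rich libraries left 1 group with 1 library, which is assumed to vary like the other groups.

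Without the marker-rich libraries, the diet difference changed sign for Srebf1 over all pairs (-0.000626), in Equal light (-0.0337) and at ZT4 (-0.0481), Mlxipl at ZT0 (-0.0371), Insig2 at ZT20 (-0.0793). The diet difference no longer passed for Insig2 over all pairs (0.234). The diet difference passed for Mlxipl in Equal light (-0.328). The photoperiod difference changed sign for Srebf1 for Short minus Equal light (-0.0200), Mlxipl for Long minus Equal light (-0.0413) and for Short minus Equal light (-0.0682). The rhythm test no longer passed for Srebf1 in LFD Equal light (0.232), Mlxipl for Long against Short light (0.0562). 3 of the LXR targets were higher in HFD. With quantile normalization, the diet difference changed sign for Srebf1 in Equal light (-0.054). The diet difference passed for Mlxipl in Equal light (-0.269). The photoperiod difference changed sign for Srebf1 for Short minus Equal light (-0.00378), Mlxipl for Short minus Equal light (-0.011), Insig2 for Long minus Equal light (-0.00339). The rhythm test no longer passed for Srebf1 in LFD Equal light (0.055). 0 of the LXR targets were higher in HFD. With the library number as a covariate, the diet difference changed sign for Srebf1 in Equal light (-0.0805) and in Long light (0.0488). The rhythm test no longer passed for Srebf1 in LFD Equal light (0.101), Mlxipl for Long against Short light (0.0604). The rhythm test passed for Srebf1 in LFD Short light (0.0265). Without the 2 libraries farthest from their groups, the diet difference changed sign for Srebf1 at ZT20 (0.0505), Mlxipl at ZT0 (-0.0324), Nr1h3 at ZT20 (0.0773). The diet difference passed for Mlxipl in Equal light (-0.247) and at ZT4 (-0.367). The photoperiod difference changed sign for Srebf1 for Short minus Equal light (-0.0484), Mlxipl for Long minus Equal light (-0.015) and for Short minus Equal light (-0.0505). The rhythm test no longer passed for Srebf1 in HFD Equal light (0.164) and in LFD Equal light (0.0652). The rhythm test passed for Srebf1 in LFD Short light (0.0362), Nr1h3 in LFD Short light (0.00631) and for Long against Equal light (0.0489). 2 of the ChREBP targets were lower in HFD. 2 of the LXR targets were higher in HFD. With library weights, the diet difference changed sign for Mlxipl at ZT0 (-0.0327), Nr1h3 at ZT20 (0.0638). The diet difference passed for Mlxipl in Equal light (-0.213), in Long light (-0.217), in Short light (-0.203), at ZT4 (-0.277) and at ZT16 (-0.349), Nr1h3 over all pairs (0.0633) and in Equal light (0.12), Insig2 in Short light (0.409) and at ZT16 (0.701). The photoperiod difference changed sign for Srebf1 for Short minus Equal light (-0.0187). The rhythm test passed for Srebf1 in HFD Long light (0.0122), Nr1h3 in LFD Short light (0.000387) and for Short against Equal light (0.0253). 5 of the SREBP processing were lower in HFD. 2 of the ChREBP and LXR partners were higher in HFD. 1 of the SREBP1 targets was higher in HFD. 3 of the LXR targets were higher in HFD. Over all genes, 3676 were called between the diets, 5698 with library weights and 2282 without replicate 1. For time of day 6266 were called, and 3821 without replicate 3. For the rhythm in Long against Equal light 3421 were called, 5279 with library weights and 1376 without replicate 3. For Short against Equal light 2349 were called, 4491 with library weights, 1444 without the marker-rich libraries and 818 without replicate 1. Most counts within a photoperiod, at a time or in an arm also moved by over 1.5 times with library weights and without replicate 1.

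Leaving out replicate 1, 2, 3 or 4 of each group in turn changed the following results. For Srebf1 the diet difference ran from -0.0422 to 0.168 over all pairs, -0.0938 to 0.222 in Equal light, -0.135 to 0.0786 in Long light, -0.109 to 0.403 at ZT4, -0.492 to 0.00945 at ZT12, -0.234 to 0.147 at ZT16 and -0.303 to 0.115 at ZT20. For Mlxipl the diet difference ran from -0.227 to -0.127 over all pairs, -0.127 to 0.262 at ZT0 and -0.186 to 0.0363 at ZT8. For Nr1h3 the diet difference ran from -0.0225 to 0.083 at ZT8 and -0.0844 to 0.0789 at ZT20. For Insig2 the diet difference ran from 0.198 to 0.323 over all pairs and -0.0912 to 0.319 at ZT20. For Srebf1 the photoperiod difference ran from -0.194 to 0.0509 for Long minus Equal light, -0.0726 to 0.169 for Short minus Equal light and -0.146 to 0.0482 for Long minus Short light. For Mlxipl the photoperiod difference ran from -0.0123 to 0.0908 for Long minus Equal light and -0.0399 to 0.045 for Short minus Equal light. For Nr1h3 the photoperiod difference ran from -0.00315 to 0.0215 for Long minus Short light. For Insig2 the photoperiod difference ran from -0.0767 to 0.0567 for Long minus Equal light. For Srebf1 the adjusted p ran from 1.88e-05 to 0.0583 for time of day, 0.00862 to 0.435 for the rhythm in HFD Equal light, 0.00969 to 0.419 for the rhythm in LFD Equal light, 0.0169 to 0.102 for the rhythm in HFD Short light, 0.0243 to 0.439 for the rhythm in LFD Short light and 0.0124 to 0.228 for Long against Short light. For Mlxipl the adjusted p ran from 0.00848 to 0.68 for the rhythm in LFD Equal light and 0.0249 to 0.249 for Long against Short light. For Nr1h3 the adjusted p ran from 0.0103 to 0.105 for Long against Short light. The number of genes called ran from 0 to 2 for SREBP processing lower in HFD, 7 to 11 for SREBP1 targets lower in HFD, 0 to 1 for ChREBP targets lower in HFD, 1 to 2 for ChREBP targets higher in HFD and 0 to 1 for LXR targets higher in HFD. The fewest recovered reads of a regulator in a library were 953, for Nr1h3, so that counting error was small beside the within-group SD.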
